A study of Mus musculus with 10 samples.

Results

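The clustered histone genes encode the core histones H2A, H2B, H3 and H4 and the linker histone H1, and lie in groups named Hist1, Hist2, Hist3 and Hist4. Members were chosen by name: a row of the count table belonged if its symbol began with Hist1h, Hist2h, Hist3h or Hist4h and it had at least 10 counts over the 10 libraries. Of 24421 genes in the table, 68 matched the pattern and 57 were members, namely 5 for H1, 13 for H2A, 17 for H2B, 10 for H3 and 12 for H4. By group, 47 were Hist1, 6 Hist2, 3 Hist3 and 1 Hist4 genes. The other 11 rows fell under the minimum, and 8 of them had no count. Those 8 share most of their sequence with other genes, as given below. The member nearest the minimum was Hist1h2ba with 23 counts, and the row nearest below it was Hist1h1t, the testis linker histone, with 6 counts.

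The RNA came from R2 erythroid precursors, sorted as CD71+Ter119+ cells from bone marrow of transplanted mice, with 1 library per mouse. Irradiated BoyJ recipients received bone marrow mononuclear cells, and every donor, controls included, carried Rosa-CreERT2, a tamoxifen-activated Cre recombinase expressed in all tissues. Every recipient was given 1 mg tamoxifen per injection in 2 rounds of 5 days. The labels put 2 days between the rounds, and the study's methods have the injections repeated a week later. Tamoxifen removed the floxed Ddx41 allele where the donor had one, while Trp53+/- was present in the donor from the start. Marrow was taken 8 weeks after transplant and the cells of each mouse were sorted and extracted separately. The 4 genotypes of the donor cells were Ddx41+/+Trp53+/+ (3 mice, replicates 10, 11 and 12), Ddx41+/-Trp53+/+ (2 mice, replicates 32 and 34), Ddx41+/+Trp53+/- (3 mice, replicates 22, 23 and 24) and Ddx41+/-Trp53+/- (2 mice, replicates 46 and 47). No gate on a donor marker is stated for this sort, so remaining host cells may have been included.

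Most messenger RNAs end in a poly(A) tail, but the histone genes that supply S phase make a messenger that ends in a short conserved stem-loop. The stem-loop binding protein Slbp and the U7 small nuclear RNA direct its cleavage, and the messenger is destroyed when DNA synthesis stops. Some clustered histone genes also make a longer, polyadenylated messenger, which has been described in cells that leave the cycle and differentiate. The libraries were made from poly(A)-selected RNA, so the values below describe polyadenylated or internally primed histone RNA and not the bulk of histone messenger. Erythroid precursors divide several times while their nuclei condense, and Ddx41 encodes a DEAD-box RNA helicase. Trp53 encodes the p53 tumour suppressor.

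The stem-loop is shown first because it separates the cleaved end from the longer end of each gene. The annotated bases after the stop codon were searched for 6 paired bases starting GG on each side of a 4-base loop starting TTT. Only matches starting within 200 bases of the stop codon were kept. A stem-loop was found in 36 of 57 members, starting 21 to 54 bases after the stop codon. Of these, 19 had at least 150 annotated bases beyond it. The forms below are given 5′ to 3′ as the GENCODE transcripts write them, with the paired bases in capitals and the loop in lower case. The first was found in 20 members (3 H1, 6 H2A, 8 H2B and 3 H3), the second in 6 H4 members, the third in 2 H2B and 3 H3 members, and the fourth and the fifth in 2 H4 members each. The fifth is that of Hist1h4i, the H4 gene with the most reads. These forms cover 35 of the 36, and the other member, the H2A gene Hist2h2ac, had a further form.
stem-loop of H1, H2A, H2B and H3 genes: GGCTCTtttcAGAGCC
stem-loop of H4 genes: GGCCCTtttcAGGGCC
stem-loop of Hist1h2bb, Hist1h3c and others: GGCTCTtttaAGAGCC
second form in H4 genes: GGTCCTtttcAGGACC
form of Hist1h4i and Hist2h4: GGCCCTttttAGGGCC
The H4 forms differed from the others printed within the paired bases. No form was found within 200 annotated bases of the stop codon in the other 21 members, several of which have no annotated base after it.

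Promoters (250 bases before to 50 after the start, RefSeq, build GRCm38.p6) were matched for 51 of 57 members and searched on both strands for 4 motifs. The octamer ATTTGCAT, the binding site of Oct1, was present in 6 of 13 H2A and 6 of 14 H2B promoters and in 0 of the H1, H3 and H4 promoters, against 1.74% of all 32851 promoters in the same table. CCAAT was present in 43 of 51, in every class but H4, where 3 of 11 held it, against 37.4% of all promoters. TATAAA was present in 32 of 51 against 13.6%. AAACACA, the H1 box, was present in 4 of 5 H1 promoters against 7.18%. Bases before the start are printed below for the highest-level H1 gene, for an H2B gene with a shared promoter, and for Hist1h4n, the member with the only call in the comparisons. Capitals mark the motifs, ATTGG being CCAAT on the other strand, and in these stretches they do not overlap.
Hist1h2bg, chr13:23571221-23571399, plus strand: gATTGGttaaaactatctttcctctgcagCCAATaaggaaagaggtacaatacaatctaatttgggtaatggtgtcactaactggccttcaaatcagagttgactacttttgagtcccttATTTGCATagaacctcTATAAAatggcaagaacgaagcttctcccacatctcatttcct
Hist1h1c, chr13:23738557-23738806, plus strand: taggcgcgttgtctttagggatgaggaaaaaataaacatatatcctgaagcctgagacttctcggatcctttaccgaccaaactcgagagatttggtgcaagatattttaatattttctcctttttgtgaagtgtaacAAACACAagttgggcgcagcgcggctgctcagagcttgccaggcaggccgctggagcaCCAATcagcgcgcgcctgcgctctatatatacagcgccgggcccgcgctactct
Hist1h4n, chr13:21832198-21832447, minus strand: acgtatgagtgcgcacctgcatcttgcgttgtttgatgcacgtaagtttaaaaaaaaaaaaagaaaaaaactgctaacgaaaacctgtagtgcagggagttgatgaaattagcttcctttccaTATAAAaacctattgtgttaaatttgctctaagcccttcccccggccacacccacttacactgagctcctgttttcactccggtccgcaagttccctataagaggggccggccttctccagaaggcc
The stretch before Hist1h2bg holds 1 octamer, 2 CCAAT and 1 TATAAA match, and reaches back to the start of Hist1h2ae on the other strand. The stretch before Hist1h4n holds 1 TATAAA match and 0 CCAAT matches.

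Libraries held 7866648 to 20283930 counts, and members took 0.0466% to 0.0609% of them. Levels are given as CPM, counts scaled to library size with the trimmed mean of M-values (TMM). The targeted gene Ddx41 was at 25.1, 21.9 and 22.6 CPM in Ddx41+/+Trp53+/+ mice, 13.8 and 16.5 in Ddx41+/-Trp53+/+, 26.6, 22.9 and 23.2 in Ddx41+/+Trp53+/-, and 12.5 and 15.6 in Ddx41+/-Trp53+/-. Trp53 was at 57.4 to 68.1 CPM in the 5 Trp53+/+ mice and 40.3 to 46.1 in the 5 Trp53+/- mice, so both matched the labels in every mouse. Erythroid genes were high and none of 17 tested was called in any comparison, with Slc4a1 (the anion exchanger band 3) at 27920 CPM and Alas2 (the first enzyme of haem synthesis) at 7917. Globin rows were close to empty, with Hbb-bt at 0 and Hba-a1 at no more than 1.28 CPM. Markers of other cells were present in every library. Summed neutrophil markers ran from 5187 to 8911 CPM, macrophage markers from 1301 to 1832, megakaryocyte markers from 83.9 to 105 and T cell markers from 18.8 to 27.6.

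Most clustered histone reads came from H2B and H1 genes. Of the members' summed CPM, H2B took 47.1%, H1 24.5%, H4 13.9%, H2A 9.31% and H3 5.23%. By group, Hist1 genes took 75.4%, Hist3 12.3%, Hist2 11.7% and Hist4 0.630%. Per kilobase of transcript (RefSeq span) the class medians were 24.02 CPM for H1, 11.6 for H2B, 9.15 for H4, 5.03 for H2A and 4.57 for H3. With the longest GENCODE transcript as the length they were 13.4 for H1, 12.8 for H2B, 6.64 for H4, 4.04 for H2A and 4.39 for H3, so H1 came close to H2B and the order of H2A and H3 changed. Classes also differed in sequence shared with other genes. The median share of a member's 75-base windows found in other genes' transcripts was 1.47% for H1 and 23.5% for H4. It was 36.6% for H2B, 52.3% for H3 and 55.4% for H2A. The part of shared sequence in the class levels was not tested.

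The sum over all 57 members was 475.1, 459.0 and 532.0 CPM in Ddx41+/+Trp53+/+ mice, 502.6 and 608.4 in Ddx41+/-Trp53+/+, 502.7, 482.3 and 552.8 in Ddx41+/+Trp53+/-, and 537.4 and 493.0 in Ddx41+/-Trp53+/-. Genotype means were 488.7 ± 38.4 (SD, n = 3), 555.5 ± 74.8 (SD, n = 2), 512.6 ± 36.3 (SD, n = 3) and 515.2 ± 31.4 (SD, n = 2) in the same order. Each genotype overlapped with the one it was compared with, for the total and for each of the 5 class sums. H1 sums ran from 98.0 to 149.8 CPM, H2A from 42.5 to 64.8, H2B from 223.1 to 269.3, H3 from 23.5 to 31.1 and H4 from 60.6 to 96.9. Replicate 34 had the highest H2A, H2B and H4 sums. In bulk RNA of this kind, a smaller share of cells making a transcript and less transcript in each cell cannot be told apart.

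**Figure D1:**
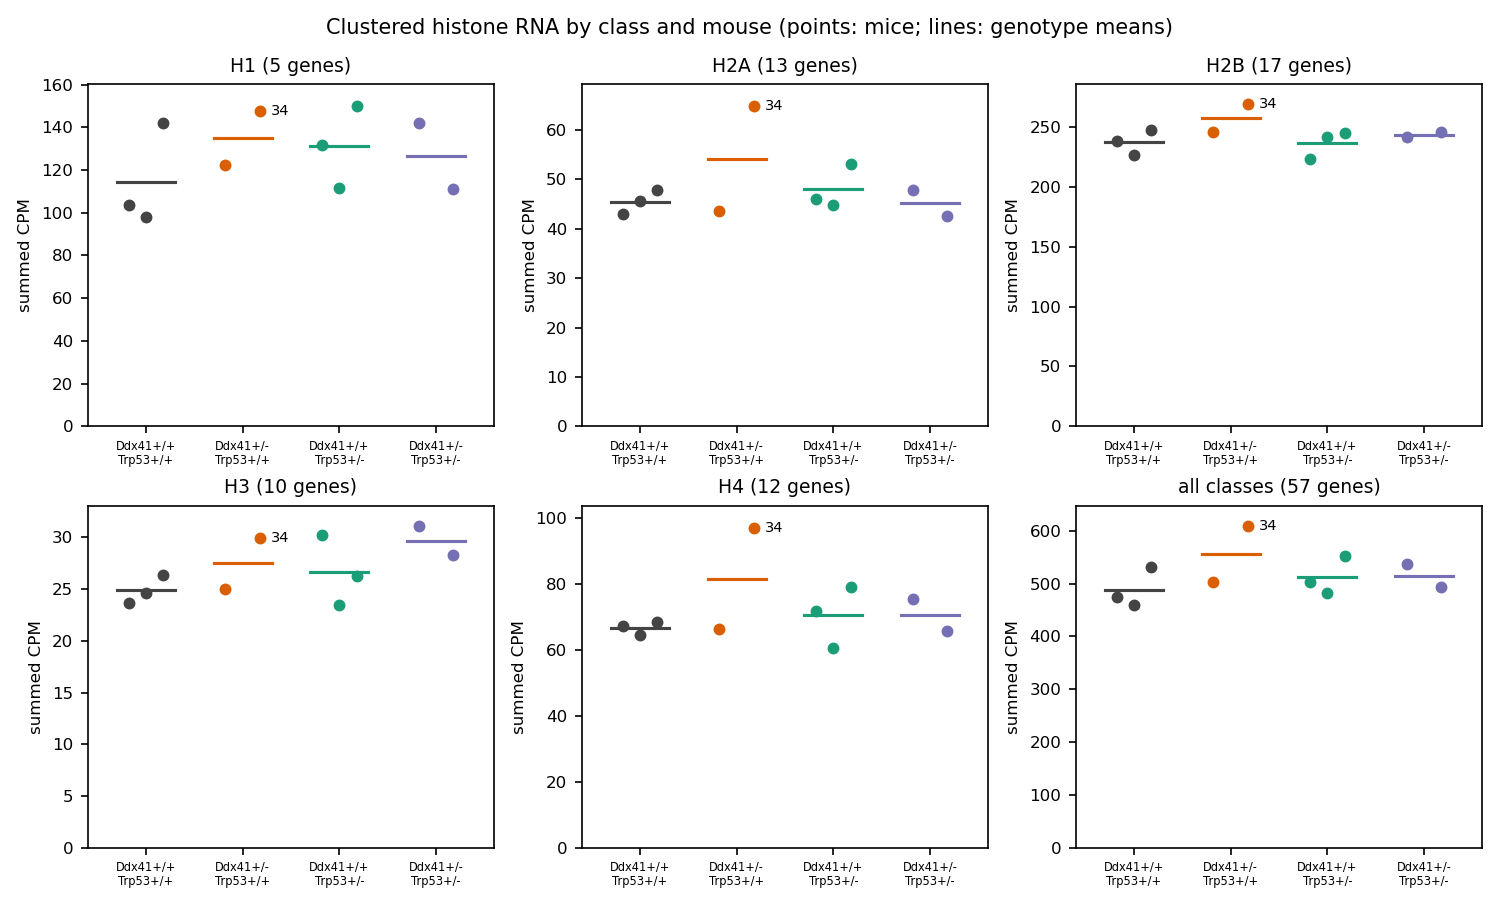
Summed CPM of clustered histone genes (vertical axis) by donor genotype (horizontal axis), for each histone class and for all 57 members. Points are mice and lines are genotype means; replicate 34 is marked, and its H4 sum of 96.9 CPM stands above the next highest of 79.0.

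A small number of genes held most of the reads. The 6 members with the highest mean CPM (Hist1h1c, Hist1h2bc, Hist3h2ba, Hist2h2be, Hist1h2bg and Hist1h4i) took 53.9% of the members' CPM, and their sum varied 1.18-fold between the lowest and highest mouse. The sum of the other 51 varied 1.59-fold. Hist1h1c, which encodes linker histone H1.2, was at 58.5, 53 and 67.0 CPM in Ddx41+/+Trp53+/+ mice, 64.3 and 68.9 in Ddx41+/-Trp53+/+, 65.0, 60.2 and 69.9 in Ddx41+/+Trp53+/-, and 70.6 and 64.8 in Ddx41+/-Trp53+/-. It lies at chr13:23738807-23739531 on the plus strand and shares 6.66% of its 75-base windows with transcripts of other genes. Hist1h1e and Hist1h1d, which encode H1.4 and H1.3, had means of 20.1 and 18.6 CPM. Hist1h1e shares 28.4% of its windows with other genes, most with Hist1h2be, next to it, so reads of these genes could have been divided between them.

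Among H2B genes, Hist1h2bc averaged 62.4 CPM, Hist3h2ba 44.3 and Hist2h2be 42.8. Hist3h2ba, at chr11:58948911-58949372, was at 50.3, 44.9 and 43.0 CPM in Ddx41+/+Trp53+/+ mice, 45.5 and 52.3 in Ddx41+/-Trp53+/+, 42.5, 41.7 and 40.3 in Ddx41+/+Trp53+/-, and 43.4 and 39.0 in Ddx41+/-Trp53+/-. Its level per kilobase was the highest of all members, at 95.9 CPM. The RefSeq gene Gm51864 overlaps it, and reads of overlapping genes may not have been told apart. For H2A, Hist3h2a had the most reads, with a mean of 17.7 CPM, and the smallest spread of the members (coefficient of variation 4.94%), followed by Hist1h2ak at 7.66 and Hist1h2ac at 3.92. Hist3h2a overlaps Trim17. For H4, Hist1h4i averaged 29.7 CPM, Hist1h4d 6.60 and Hist2h4 6.08. For H3, Hist1h3c, Hist1h3i and Hist1h3g averaged 5.09, 4.26 and 3.33 CPM, and none of the 10 H3 members exceeded 10.6 CPM per kilobase.

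The remaining members outside Hist1 had fewer reads. Hist2h2bb averaged 5.74 CPM, Hist4h4 3.24, Hist2h3b 2.80, Hist2h2ac 2.35, the pseudogene Hist3h2bb-ps 1.24 and Hist2h2ab 0.280. Hist2h2ab (43 counts) and Hist1h2ba (23 counts) were too low to be tested, which left 55 tested members.

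Members with a long annotated 3' end supplied most of the reads of H1, H2B and H4 and of the members as a whole. The 23 members with at least 150 annotated bases after the stop codon took 75.3% of the members' CPM, and the 33 with fewer took 24.5%. Per kilobase, with the RefSeq span as the length, the median was 11.9 CPM for the former (2.20 to 95.9) and 6.68 for the latter (0.337 to 16.5), and the 8 highest members all had a long end. The order of those medians depended on the length used. With the longest GENCODE transcript, which counts the long ends, it was 3.74 for long and 6.90 for short ends. Under that length Hist3h2ba (72.1), Hist1h2bg (55.2), Hist1h2bc (54.0), Hist1h1c (41.2) and Hist1h4i (40.8) still held the first 5 places. The annotation behind the counts is not given in the sources used here, so neither length could be preferred.

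**Figure D2:**
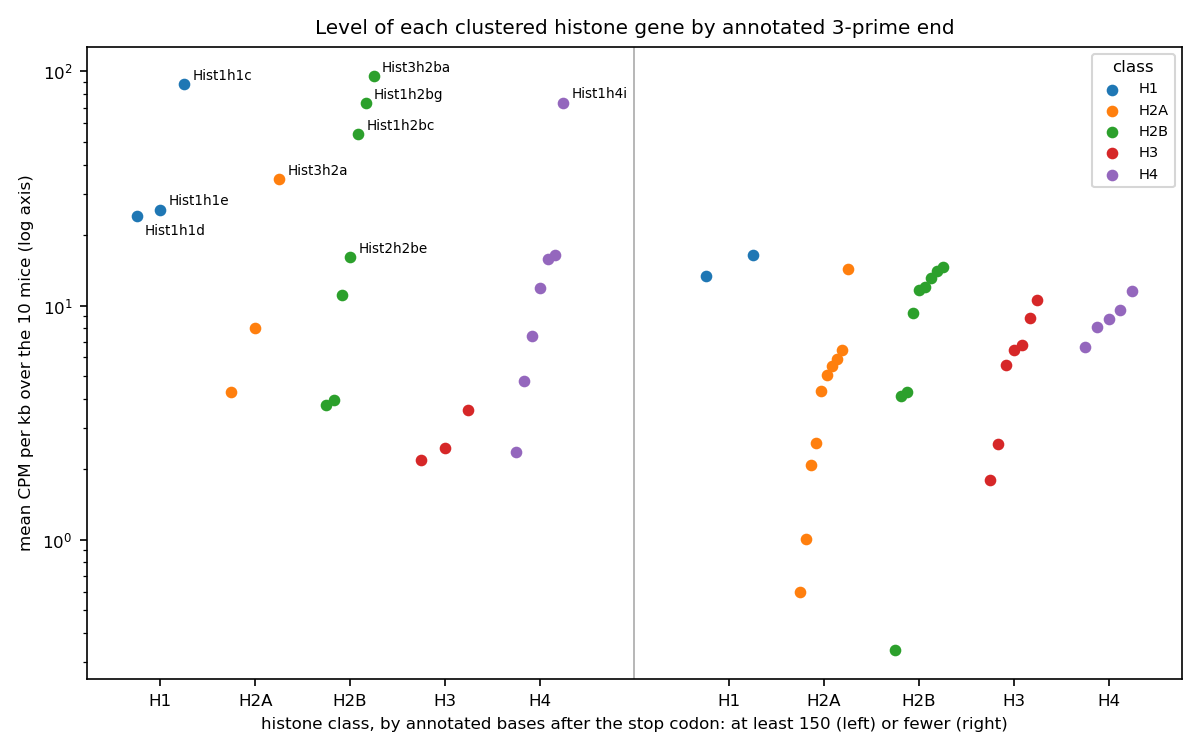
Mean CPM per kilobase of RefSeq span over the 10 mice (vertical log axis) for each clustered histone gene, by histone class and by annotated bases after the stop codon (long ends left, short ends right). Hist3h2ba at 95.9 and Hist1h1c at 88.6 stand at the top of the long-ended genes, and no short-ended gene exceeds 16.5.

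Of the 57 members, 19 shared over 50% of their 75-base windows with transcripts of another gene, and the median share was 36.2% (0 to 93.5%). The other gene was not always a histone row, since Hist2h3b shared most with Gm20634, Hist2h2bb with Gm42743 and Hist3h2a with Trim17. How reads matching several genes were counted is not given in the sources used here. Levels of such genes, among them Hist1h3h, Hist1h2ah, Hist1h2ai, Hist1h2an, Hist1h2ag and Hist1h4n, are therefore uncertain as single-gene values. The 8 histone rows with no count shared from 62.6% (Hist2h3c2) to 100% (Hist2h3c1) of their windows. A count of 0 in these rows therefore need not mean that the gene made no RNA, and this was not tested.

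H2A and H2B genes often lie head to head and share a promoter. Of 10 such pairs, with 164 to 249 bases between their starts, the H2B gene had the higher level per kilobase of length used above in all 10 mice in 6 pairs. The H2A gene was higher in all 10 mice in 1 pair, Hist3h2a with Hist3h2bb-ps, where the ratio of H2B to H2A was 0.0766. Across the promoter printed above, Hist1h2bg exceeded Hist1h2ae 17.2-fold, and 16.3-fold with GENCODE lengths. Hist1h2bc exceeded Hist1h2ac 6.71-fold when the transcript length of the former was set against the span of the latter, and 34.2-fold with GENCODE lengths for both, so which pair had the highest ratio depended on the length. Hist2h2be exceeded Hist2h2ac 3.19-fold (3.61-fold with GENCODE lengths). The counts of 6 pairs and 1 pair were the same with either length, and the ratio for Hist3h2bb-ps over Hist3h2a was 0.324 with GENCODE lengths. Among the 6 pairs, Hist1h2ah shares 90.0% of its windows with other genes, against 72.6% for Hist1h2bk. The shares are 77.6% for Hist1h2ag against 50.4% for Hist1h2bj, and 65.5% for Hist1h2ad against 56.6% for Hist1h2bf. They are lower for Hist1h2ac and Hist1h2ae than for their H2B partners. The part of shared sequence in these ratios was not tested.

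The first comparison asked what loss of 1 Ddx41 allele did with Trp53 intact. Hist1h4n, an H4 gene, was the only one of 55 tested members called by edgeR's quasi-likelihood test (adjusted p under 0.05 over all 11846 tested genes, fold change over 1.5). It was at 0.791, 2.33 and 2.21 CPM in Ddx41+/+Trp53+/+ mice and 5.47 and 6.60 in Ddx41+/-Trp53+/+ (15, 48 and 32 counts against 90 and 52). It was at 2.80, 2.41 and 3.67 CPM in Ddx41+/+Trp53+/- mice and 3.83 and 5.44 in Ddx41+/-Trp53+/-. Both Ddx41+/-Trp53+/+ mice stood above every mouse of the other 3 genotypes, with replicate 47 at 5.44 just under replicate 32 at 5.47. The log2 fold change was 1.75 (SE 0.38, adjusted p = 0.0494). This call lay at the threshold and held in 4 of 17 alternative analyses, with adjusted p between 5.54e-05 and 0.371. Hist1h4n lies at chr13:21831792-21832197 on the minus strand and shares 83.4% of its windows with other genes, most with Hist1h4m, a row with no count. Hist1h4m in turn shares 89.0% of its windows, most with Hist1h4n, so the level of either gene alone is uncertain.

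Called members made up 1 of 55, against 0.54% of all tested genes. At an unadjusted p under 0.05 there were 6 members, all higher in Ddx41+/-Trp53+/+ (Hist1h4n, Hist2h4, Hist1h2ag, Hist1h2be, Hist1h2bn and Hist1h2bc), against 9.64% of all tested genes. The values of 10 members did not overlap between the genotypes (9 higher, 1 lower), against 24.9% of all tested genes. The median log2 fold change of the 55 members was 0.21, with 39 positive, while the median over all tested genes was 0.001. By class it was 0.48 for H4, 0.30 for H2A, 0.16 for H1, 0.14 for H2B and 0.01 for H3.

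Hist2h4 was at 4.43, 4.91 and 5.53 CPM in Ddx41+/+Trp53+/+ and 5.96 and 12.8 in Ddx41+/-Trp53+/+ (log2 fold change 0.88, SE 0.28, adjusted p = 0.246). Hist1h2ag was at 0.896, 1.26 and 0.346 CPM against 2.19 and 2.67 (log2 fold change 1.48, SE 0.54, adjusted p = 0.336). Hist1h2be was at 5.38, 7.43 and 9.54 CPM against 10.6 and 11.7 (log2 fold change 0.59, SE 0.23, adjusted p = 0.384). None of these passed the adjusted threshold, although their values did not overlap. Hist1h4a had a log2 fold change of 1.07 (SE 0.59, adjusted p = 0.607) on 169 counts over all libraries. In the opposite direction Hist1h2bl, at 2.11, 1.94 and 2.63 CPM against 1.34 and 1.02, had a log2 fold change of -0.87 (SE 0.42, adjusted p = 0.535).

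**Figure D3:**
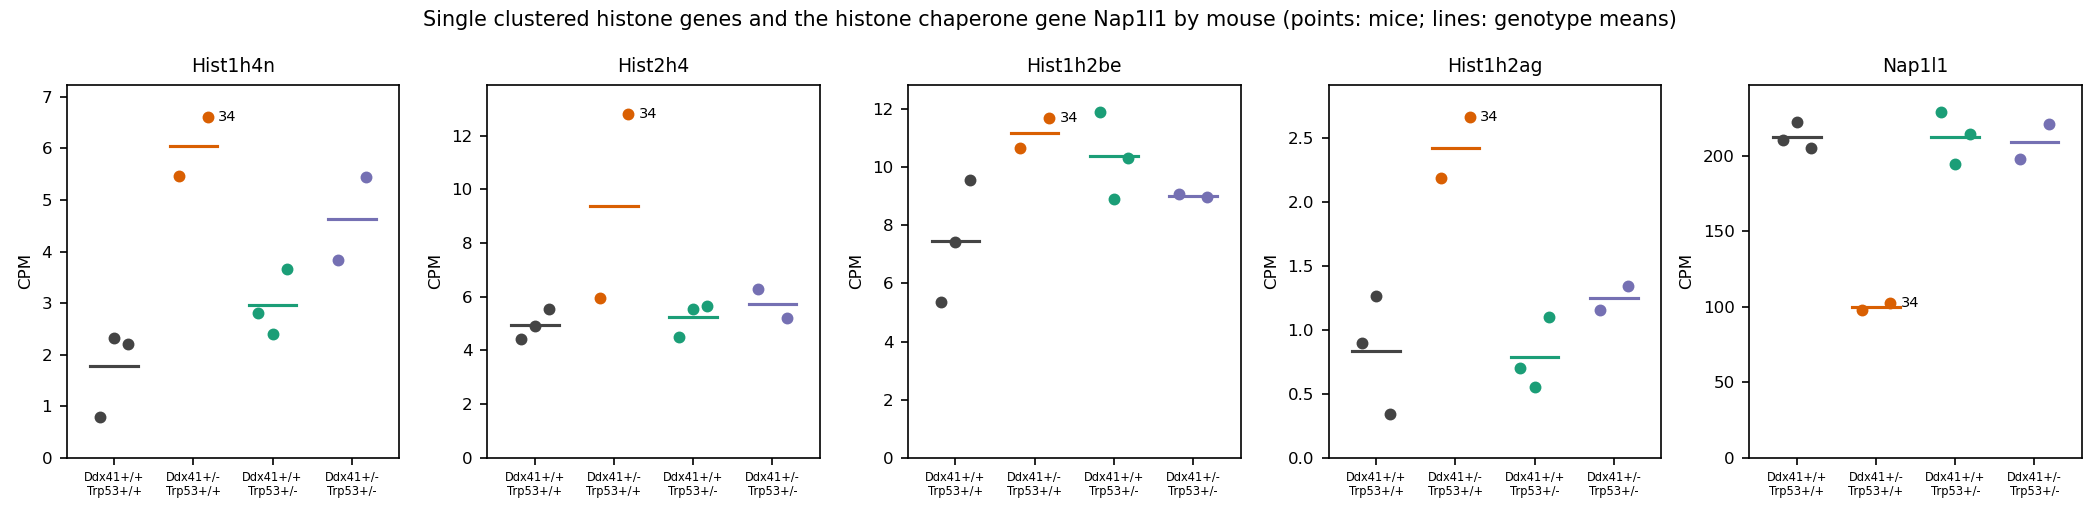
CPM (vertical axis) by donor genotype (horizontal axis) for 4 clustered histone genes and for the histone chaperone gene Nap1l1. Points are mice, lines are genotype means and replicate 34 is marked; Nap1l1 stood at 97.8 and 102.3 CPM in the Ddx41+/-Trp53+/+ mice and at 194.2 or more in every other mouse.

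Replicate 34 set much of this pattern. It held the highest value of the 10 mice in 25 of 57 members, while no other mouse held more than 7, and it was the shallowest library, at 7866648 counts. Without it the median log2 fold change of the members was 0.02, with 29 of 56 positive, 2 members at an unadjusted p under 0.05 and 0 called. Hist1h4n then had a log2 fold change of 1.63 (adjusted p = 0.371), with the lone mouse assumed to vary like the other genotypes. Without replicate 32 the members' median was 0.40, and 10 members had an unadjusted p under 0.05, as did 10 without replicate 12.

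The 45S ribosomal RNA precursor Rn45s, which was looked up after values were seen, was also highest in replicate 34, at 22370 CPM against 8322 to 13560 in the other 9 mice. Members with a short annotated end summed to 161.1 CPM in replicate 34, against 100.4 to 148.4 in the others, and those with a long end to 446.1 against 348.1 to 403.1. B cell markers are given below as ranges by genotype and not for this mouse alone. The part of these differences in the members' values was not tested.

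**Figure D4:**
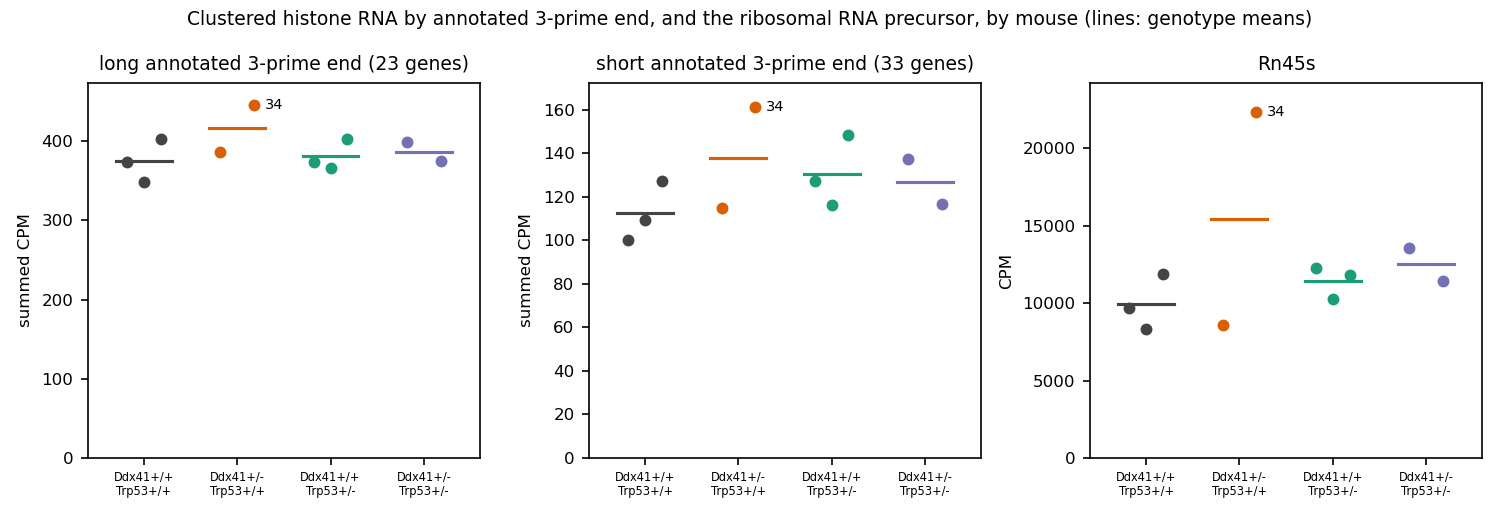
Summed CPM of members with long and short annotated 3' ends and CPM of Rn45s (vertical axes) by donor genotype (horizontal axes). Points are mice and lines are genotype means; replicate 34 is highest in each panel, at 446.1, 161.1 and 22370 CPM.

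With 1 Trp53 allele, no clustered histone gene was called between Ddx41+/- and Ddx41+/+ donors. The count was 0 by edgeR and 0 by DESeq2, against 0.0422% of all tested genes in edgeR. In either tool 0 members had an unadjusted p under 0.05, against 3.75% of all tested genes in edgeR. Values of 7 members did not overlap (5 higher, 2 lower), against 20.0% of all tested genes. The median log2 fold change was -0.003, with 24 of 55 positive. Of the members without overlap, the largest estimates were Hist1h2ag at 0.65 (SE 0.56), Hist1h4n at 0.64 (SE 0.37) and Hist1h2ac at -0.52 (SE 0.31), each with an adjusted p of 0.9996.

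The Trp53 comparisons asked what loss of 1 Trp53 allele did. With Ddx41+/+, 0 members were called by edgeR and 0 by DESeq2, against 0.912% of all tested genes in edgeR. At an unadjusted p under 0.05 there was 1 member by edgeR, against 9.44% of all tested genes, and 1 by DESeq2. This count rested on single mice, being 7 without replicate 12, 6 without replicate 23, 3 without replicate 11, 0 without replicate 22 or 24 and 1 without any of the others. In edgeR it was Hist1h2be, at 5.38, 7.43 and 9.54 CPM in Ddx41+/+Trp53+/+ and 11.9, 8.90 and 10.3 in Ddx41+/+Trp53+/- (log2 fold change 0.48, SE 0.20, adjusted p = 0.450), with overlapping values. Values of 6 members did not overlap (2 higher, 4 lower), against 14.1% of all tested genes. The median log2 fold change was 0.15, with 41 of 55 positive.

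Those higher were Hist1h4n (log2 fold change 0.75, SE 0.36, adjusted p = 0.540) and Hist4h4, at 2.32, 2.53 and 2.56 CPM against 4.998, 2.66 and 3.14 (log2 fold change 0.52, SE 0.37, adjusted p = 0.713). Those lower were among the members with the most reads, namely Hist1h2bg, Hist3h2ba, Hist1h4i and Hist3h2a. Hist1h2bg was at 36.3, 33.9 and 38.7 CPM against 25.9, 33.5 and 32.6 (log2 fold change -0.23, SE 0.11, adjusted p = 0.547).

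With Ddx41+/-, 0 members were called by edgeR and 0 by DESeq2, against 0.169% of all tested genes in edgeR. An unadjusted p under 0.05 was reached by 2 members in edgeR, Hist1h2an higher and Hist2h4 lower, against 5.42% of all tested genes, and by 3 in DESeq2. The edgeR count ranged from 0 (without replicate 23 or 34) to 6 (without replicate 32) with each mouse left out. Values of 12 members did not overlap (5 higher, 7 lower), against 37.4% of all tested genes. The median log2 fold change was -0.05, with 22 of 55 positive, and it was 0.08 without replicate 34. Hist1h2an was at 1.22 and 1.52 CPM in Ddx41+/-Trp53+/+ and 4.36 and 1.79 in Ddx41+/-Trp53+/- (log2 fold change 1.19, SE 0.54, adjusted p = 0.904). Hist1h2ag had a log2 fold change of -0.94 (SE 0.58, adjusted p = 0.947) and Hist1h2bl of 0.90 (SE 0.45, adjusted p = 0.926).

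The comparisons share genotypes with each other, so their values stand side by side and are not separate evidence. The 4 pairwise medians were 0.21, -0.003, 0.15 and -0.05 in the order given. The members' median log2 level varied between mice of the same genotype with a pooled SD of 0.15. That SD describes single mice and not a difference between genotype means, so it gives no test of these medians. The first of them was 0.02 without replicate 34.

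**Figure D5:**
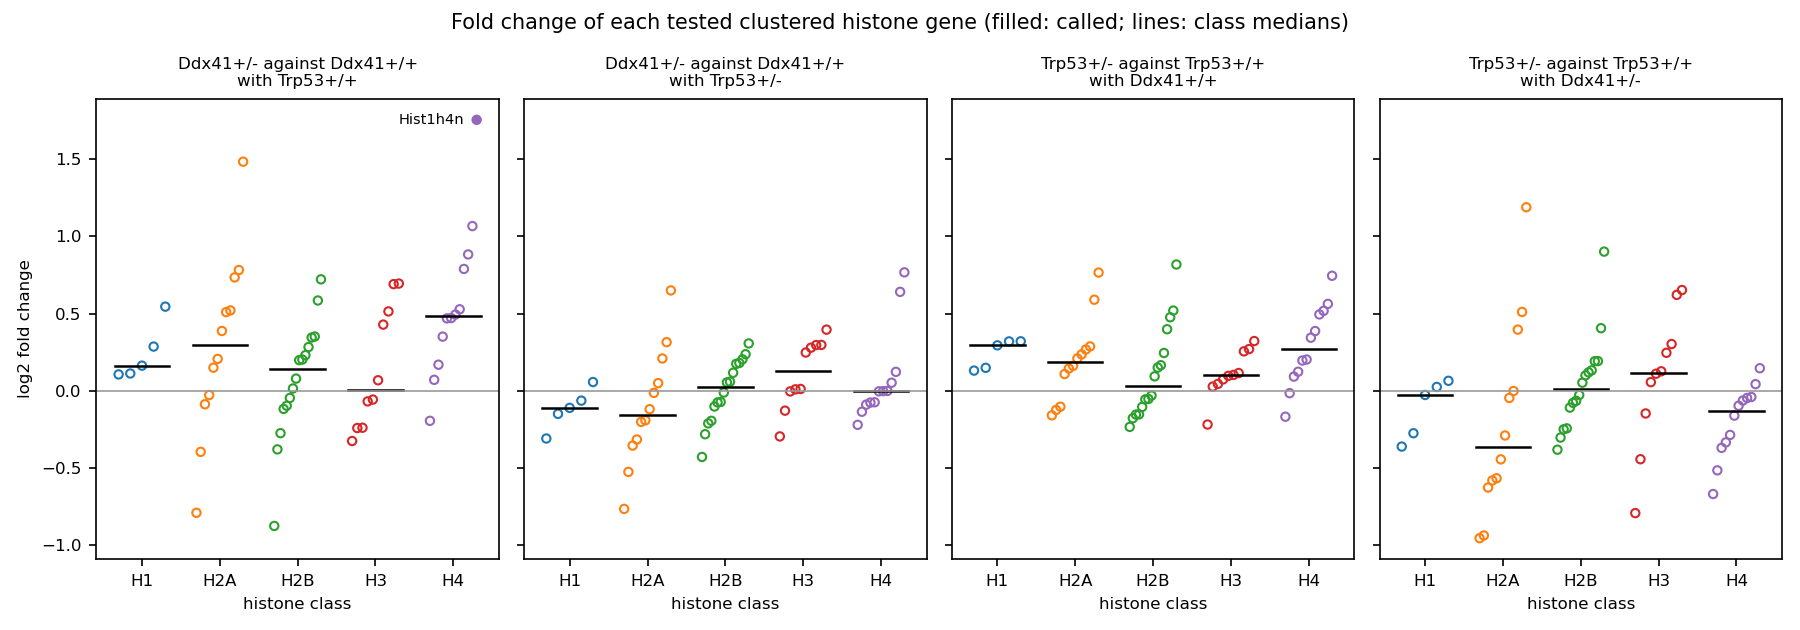
Log2 fold change (vertical axis) of each of the 55 tested clustered histone genes by histone class (horizontal axis) in the 4 pairwise comparisons of genotypes. Filled points are called and lines are class medians; Hist1h4n at 1.75 is the filled point, and the H4 median is 0.48 in the first panel and -0.13 in the last.

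The interaction term asked whether the Ddx41 effect differed with Trp53 genotype. It was called for 0 members by edgeR and 0 by DESeq2, against 0.0675% of all tested genes in edgeR. In both tools 2 members reached an unadjusted p under 0.05, against 5.0% of all tested genes in edgeR, where they were Hist1h2be (-0.78, SE 0.32, adjusted p = 0.919) and Hist1h2ak (-0.84, SE 0.38, adjusted p = 0.994). The edgeR count was 8 without replicate 32, 6 without replicate 12, 4 without replicate 23, 0 without replicate 34, and 1 or 2 without any of the others. The median over the members was -0.27, and with each mouse left out it ranged from -0.48 (without replicate 46) to -0.07 (without replicate 34).

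Averaged over both Trp53 genotypes in an additive model, 0 members were called for Ddx41 by edgeR, against 0.11% of all tested genes, while DESeq2 called Hist1h4n. In edgeR 4 members had an unadjusted p under 0.05, all higher in Ddx41+/- (Hist1h4n, Hist1h2ag, Hist2h4 and Hist1h4a), against 8.98% of all tested genes, and 5 did in DESeq2. Hist1h4n had a log2 fold change of 1.19 (SE 0.29, adjusted p = 0.154 in edgeR). For Trp53, 0 members were called by edgeR and 0 by DESeq2, against 0.287% of all tested genes in edgeR. In each tool 2 reached an unadjusted p under 0.05, against 11.2% of all tested genes in edgeR.

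Of these, Hist1h2an was higher (0.80, SE 0.32, adjusted p = 0.357) and Hist3h2ba lower in Trp53+/- (log2 fold change -0.19, SE 0.07, adjusted p = 0.346). The sum of the 3 Hist3 members was 69.9, 64.6, 62.7, 63.5 and 72.5 CPM in the Trp53+/+ mice and 61.0, 58.6, 59.2, 62.1 and 57.8 in the Trp53+/- mice. The highest Trp53+/- sum was 62.1 CPM and the lowest Trp53+/+ sum 62.7. Hist3h2ba alone overlapped, at 43.0 CPM in replicate 12 (Trp53+/+) and 43.4 in replicate 46 (Trp53+/-). Hist3h2ba made up most of this sum (mean 44.3 of 63.2 CPM), so the sum is not a separate observation. The share of all genes separated in this way is not given here. The Hist3 genes lie on chromosome 11, as does Trp53, and whether this position bears on the values was not tested.

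Genes that act on histone RNA and protein were described from lists, each gene tested across the whole table. Replacement histones are also made outside S phase, from ordinary polyadenylated messengers, and 0 of 10 tested were called in any of the 7 comparisons. H3f3a and H3f3b, both encoding H3.3, averaged 1703 and 1065 CPM. Of the genes for histone transcription and 3' end processing, 0 of 31 were called, and Slbp ranged from 460.4 to 536.7 CPM over the 10 mice. List sums were 2829 to 3013 CPM in Ddx41+/+Trp53+/+, 2782 to 2813 in Ddx41+/-Trp53+/+, 2887 to 2989 in Ddx41+/+Trp53+/- and 2844 to 2945 in Ddx41+/-Trp53+/-. Srrt, whose product Ars2 links capped transcripts to their processing, ranged from 324.1 to 359.3 CPM. Of the genes for histone mRNA decay, 0 of 13 were called, with Zcchc6 (a terminal uridylyl transferase) averaging 850.2 CPM and Upf1 (an RNA helicase of decay) 234.1. Of the DNA replication and S phase genes, 0 of 42 were called, and their sum ranged from 15580 to 17740 CPM. It was 16340 to 17360 CPM in Ddx41+/+Trp53+/+ mice, 15580 to 15970 in Ddx41+/-Trp53+/+, 15810 to 17740 in Ddx41+/+Trp53+/- and 15850 to 16770 in Ddx41+/-Trp53+/-. For Ddx41 with Trp53+/+ the median log2 fold change over the 42 was -0.10. In edgeR 4 of them had an unadjusted p under 0.05, against 9.64% of all tested genes. Whether the sums of these lists differed was not tested. E2f2, a transcription factor of the cell cycle, averaged 2341 CPM and Rrm2, a subunit of ribonucleotide reductase, 1593.

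Among 23 histone chaperone and supply genes, Nap1l1 was called. It encodes a chaperone that binds H2A and H2B. It was at 210.3, 222.0 and 205.3 CPM in Ddx41+/+Trp53+/+ mice, 97.8 and 102.3 in Ddx41+/-Trp53+/+, 228.7, 194.2 and 214.5 in Ddx41+/+Trp53+/-, and 197.7 and 220.7 in Ddx41+/-Trp53+/-. Only the Ddx41+/-Trp53+/+ mice were low, and both were. Nap1l1 fell by 1.09 on the log2 scale in Ddx41+/-Trp53+/+ against Ddx41+/+Trp53+/+ (SE 0.09, adjusted p = 4.66e-06) and was higher by 1.07 in Ddx41+/-Trp53+/- against Ddx41+/-Trp53+/+ (SE 0.09, adjusted p = 2.01e-05). With Trp53+/- the Ddx41 genotypes differed by -0.02 (SE 0.08, adjusted p = 0.9996). The interaction was 1.07 (SE 0.12, adjusted p = 0.000387). The other 22 genes of the list were not called, with Rbbp4, a subunit of the chromatin assembly complex, averaging 624.6 CPM and Anp32e, a chaperone of H2A.Z, 610.7. Summed over all 23, Nap1l1 included, the list was at 5023 to 5313 CPM in Ddx41+/+Trp53+/+ mice and 4671 to 4781 in Ddx41+/-Trp53+/+. It was at 5038 to 5393 CPM in Ddx41+/+Trp53+/- and 4861 to 5091 in Ddx41+/-Trp53+/-. Whether these sums differed was not tested.

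Markers of B cells differed between the genotypes. Their sum was 70.1 to 130.3 CPM in Ddx41+/+Trp53+/+ mice, 162.1 to 249.5 in Ddx41+/-Trp53+/+, 215.5 to 271.7 in Ddx41+/+Trp53+/- and 214.4 to 241.2 in Ddx41+/-Trp53+/-. Of 13 tested, Ebf1 and Cd79a were called higher for Ddx41 with Trp53+/+, Fcrla, Vpreb3, Ebf1, Ms4a1, Blnk and Cd79a were among those called higher for Trp53 with Ddx41+/+, and Ebf1 was called higher for Trp53 in the additive model. None of the 14 in the table was at 0 in all libraries. The pairwise comparisons in which the members' medians were 0.21 and 0.15 were those in which B cell markers were called higher, and the part of B cell RNA in the histone values was not tested. No marker of neutrophils, macrophages, T cells or megakaryocytes was called in any comparison. Macrophage markers nonetheless differed in level. Their sum was 1383 to 1764 CPM in Ddx41+/+Trp53+/+ mice, 1548 to 1726 in Ddx41+/-Trp53+/+, 1301 to 1338 in Ddx41+/+Trp53+/- and 1342 to 1832 in Ddx41+/-Trp53+/-. Of 13 tested, 9 had an unadjusted p under 0.05 for Trp53 with Ddx41+/+ (median log2 fold change over the 13 of -0.57) and 6 for Ddx41 with Trp53+/- (median 0.52). The part of macrophage RNA in the histone values was not tested.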

How the data were processed

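RNA was measured in 10 libraries of sorted CD71+Ter119+ bone marrow cells, 1 per recipient mouse, with the groups and replicate numbers taken from the sample labels. The deposited file is a table of raw counts per gene, in which the authors counted reads with featureCounts 1.5.2 after alignment with HISAT2 2.0.5 to mm10, with FastQC 0.11.7 for read quality, as the submitters' processing notes name these tools. The annotation, the strand setting and the handling of reads that match several genes are not given in the sources used here. The library kit is named as TruSeq Stranded mRNA in the labels and as a TruSeq RNA kit with poly(A) selection in the study's methods. The name of the deposited table says that 2 samples were left out of it, and these were not analysed here.

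Counts were fitted with edgeR 4.0.16 in R 4.3.3. Genes failing filterByExpr (12575) were left out, library sizes were scaled with TMM, and a quasi-likelihood F-test (two-sided) was run over all 10 libraries with 1 mean per genotype, or with additive terms for each gene. Adjusted p-values are Benjamini-Hochberg over 11846 genes, and a gene was called at an adjusted p under 0.05 and a fold change over 1.5. The standard error is the log2 fold change divided by the square root of F. Tables and figures were made with Python 3.11.15, numpy 2.4.6, pandas 2.3.3 and matplotlib 3.10.9. The code was tested on simulated data. Alternatives were DESeq2 1.42.0, other scalings, other filters, fewer samples, each mouse left out in turn and, chosen after seeing the data, GENCODE transcript lengths.

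Positions are from RefSeq, build GRCm38.p6, and transcripts from GENCODE M21. Lengths are RefSeq spans, except for 3 genes with introns (Hist1h2bc, Hist1h2be and Hist1h2bp), for which the GENCODE transcript was used. Shared sequence is the percentage of a gene's 75-base windows found in GENCODE transcripts of any other gene. Named genes were the 3 highest members of each class, every called member, the 3 largest changes without overlap in each pairwise comparison, all Hist2, Hist3 and Hist4 members, those next to the count minimum, and, from each list, called genes and the 2 highest. Others named with an unadjusted p under 0.05 or without overlap, and Rn45s, were chosen after their values were seen. Members and lists were chosen with earlier results of these data known. The labels give no batch. Precision follows the counts behind a value, and since no source names molecular identifiers, it covers counting error only. Some marker genes are not reported here.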

Additional observations from a re-analysis of the deposited data

Results flagged for a closer look

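Nap1l1 differed in its Ddx41 effect between Trp53 genotypes: the interaction term was 1.07 on the log2 scale (SE 0.12, edgeR adjusted p = 0.000387). The Ddx41+/- effect was -1.09 with Trp53+/+ and -0.02 with Trp53+/-. Leaving out each mouse in turn gave interaction values of 1.00 to 1.15, and it stayed past the threshold in each of these and in the 6 other alternative analyses that gave an interaction term. The fit of only the 2 genotypes compared gives none.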

How the results depend on the processing

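With 2 or 3 mice per genotype and members of 23 to 9969 counts, small differences in single members could not be resolved. No paired analysis was possible because the genotypes share no replicate number. Hist1h4n was the 1 member called for Ddx41 with Trp53+/+. The count was 0 with DESeq2 size factors, with total counts, with at least 10 counts in every library and with only the 2 genotypes compared, and 0 to 1 when each mouse was left out (1 without replicate 12, 0 without any of the others). It stayed 1 with DESeq2, without globin genes and with no filter. With an unadjusted p under 0.05 and the fold limit, counts were 5 for that comparison, 2 for Trp53 with Ddx41+/- and 2 for the interaction. In the additive model they were 3 for Ddx41 and 1 for Trp53. The share of all tested genes under both limits is not given here, so these counts are no result about the members. For Ddx41 in the additive model the count of called members was 1 with DESeq2 and 1 with no filter. Median log2 fold changes with each mouse left out ranged from 0.0223 (without replicate 34) to 0.40 (without replicate 32) for Ddx41 with Trp53+/+, from -0.11 to 0.08 for Ddx41 with Trp53+/-, from 0.10 (without replicate 24) to 0.27 (without replicate 23) for Trp53 with Ddx41+/+, and from -0.26 (without replicate 32) to 0.0815 (without replicate 34) for Trp53 with Ddx41+/-, where it was -0.25 without replicate 46. For the interaction the range was -0.48 (without replicate 46) to -0.0693 (without replicate 34). Counts of members at an unadjusted p under 0.05 with each mouse left out were 2 to 10 for Ddx41 with Trp53+/+, 0 to 2 for Ddx41 with Trp53+/-, 0 to 7 for Trp53 with Ddx41+/+, 0 to 6 for Trp53 with Ddx41+/-, 0 to 8 for the interaction, and 2 to 6 for Ddx41 and 0 to 3 for Trp53 in the additive model. With no filter they were 10, 0, 5, 4, 7, 5 and 2 in the same order. The cause of these shifts was not tested. Shares of all tested genes under these settings are not given here, so the counts are no result about the members. The median CPM per kilobase of members with long annotated ends moved from 11.9 to 3.74 with GENCODE transcript lengths, which count more bases. The 5 class sums kept their values within the spread between mice under 3 other scalings. Over all tested genes, Ddx41 with Trp53+/+ gave 64 calls in edgeR, 131 in DESeq2, 243 with no filter and 13 without replicate 34.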
